A study of Homo sapiens with 2 samples.

Results

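The replication-dependent histone genes were examined as a set of 6 blocks of the genome, and the 22 peaks whose midpoint fell inside a block were taken as the members, out of 2692 peaks in the whole list. The blocks were fixed by position on hg19. Those of HIST1 lay on chromosome 6 from 26010000 to 26290000, from 27090000 to 27120000 and from 27770000 to 27870000. HIST2 was taken on chromosome 1 from 149750000 to 149870000, HIST3 on chromosome 1 from 228610000 to 228660000, and HIST4 on chromosome 12 from 14915000 to 14930000. The names HIST1 to HIST4 are the older names of the histone gene clusters. The scores and lengths of the peaks did not enter the rule for members, which rests on their positions alone. The blocks were, however, chosen with earlier results of these data known, and the intervals given below for densities do not cover that choice.

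The peaks come from RNA crosslinked to and precipitated with HA-tagged GATA2, a zinc finger transcription factor of blood progenitors, in K562, a human line grown from a chronic myelogenous leukaemia. Both libraries of the series, 1 HA immunoprecipitate and 1 input, were made from cells that stably carry a human GATA2 transgene. All cells had received 1 µg/mL doxycycline for 5 hours and 100 µM 4-thiouridine, a nucleoside that crosslinks under long-wave light, for 24 hours, followed by 365 nm light at 0.3 J/cm2. Cells without the transgene or without doxycycline were not analysed here, and whether the line is a single clone is not given in the sources used here. Input values were not analysed here either, so neither the abundance of histone RNA in these cells nor its enrichment over input was measured. With 1 library there is no replicate error. All comparisons below are descriptions of this 1 list, without a test.

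Replication-dependent histone genes encode the linker histone H1 and the core histones H2A, H2B, H3 and H4 that wrap newly made DNA. They are transcribed in S phase at a nuclear structure called the histone locus body, around the factor NPAT. Their mRNAs typically have no introns and no poly(A) tail. They end instead just after a conserved stem-loop that is bound by the protein SLBP. This end is formed by cleavage guided by the U7 snRNP. The genes exist in many copies that encode the same or nearly the same protein, and K562 cells, as a dividing line, need them in each cell cycle.

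The RefSeq gene table, which is on GRCh38.p14 and not on hg19, was used for the names, order and lengths of the genes. Histone genes with a HIST symbol among their older names were split into runs wherever successive starts lay more than 100 kb apart, and the 6 runs were matched to the blocks by cluster name and order. They held 68 protein-coding histone genes and 11 pseudogenes. The coding genes comprised 6 of H1, 16 of H2A, 17 of H2B, 14 of H3 and 15 of H4. The first HIST1 run, from H3P26 to H3C9P, held 32 coding genes. The second, from H2BC11 to H2AC12, held 5, and the third, from H4C10P to H2BC17, held 16. The HIST2 run from H2BC18 to H2AC21 held 11, the HIST3 run from H3-4 to H2BC27P held 3, and HIST4 was the single gene H4C16. Peaks were not assigned to single genes, because no annotation of hg19 was used and positions were not converted between builds.

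Copies within a run can be alike over long stretches, which bears on where a read from them can be placed. RefSeq promoter windows of 300 bases, from 250 before to 50 after each start, were matched for 63 of the 68 coding genes. For 4 of these the table gives windows at 2 starts, and the first listed was used. The windows of H4C14 and H4C15, the H4 copies of HIST2, were identical in 300 of 300 bases, including the last 50, which begin the transcript. The HIST2 copies H2AC18 and H2AC19 shared an unbroken run of 299 bases, and H3C14 and H3C15 one of 296 bases. Outside HIST2, the longest shared runs between genes of a family were 126 bases for H4C11 and H4C12 and 93 bases each for H2BC13 with H2BC14 and H2AC13 with H2AC14, all of the third HIST1 run. Of all 35116 windows, 263 (0.749%) had an identical partner at another position, against 2 of 63 histone windows (3.17%), those of H4C14 and H4C15. The handling of reads that match more than 1 such copy is not stated in the labels or the file, and the part of such reads in the peaks of HIST2 was not tested.

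The windows below show the HIST2 copies, an H2B promoter with the letters of all 3 motifs searched, and the only gene of the block without a peak. Each is written 5′ to 3′ in the direction of the gene, from RefSeq on GRCh38.p14, so that these positions cannot be set against the hg19 positions of the peaks. Capitals mark 3 motifs found on either strand: TATAAA, the core of the TATA box; ATTTGCAT, the octamer bound by POU2F1 and known from H2B promoters; and the GATA words AGATAA or AGATAG or TGATAA or TGATAG. H4C14 lies at chr1:149832407-149832706, plus strand, and its identical copy H4C15 at chr1:149861110-149861409, minus strand. H3C14 lies at chr1:149841159-149841458, minus strand, H2BC4 at chr6:26123877-26124176, minus strand, and H4C16 at chr12:14771082-14771381, minus strand.
H4C14 and H4C15: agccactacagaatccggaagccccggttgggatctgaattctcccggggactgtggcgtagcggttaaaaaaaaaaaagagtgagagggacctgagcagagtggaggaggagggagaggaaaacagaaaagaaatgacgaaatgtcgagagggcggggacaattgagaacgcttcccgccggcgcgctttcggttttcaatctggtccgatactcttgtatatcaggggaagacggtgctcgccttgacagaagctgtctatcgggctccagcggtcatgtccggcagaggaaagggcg
H3C14: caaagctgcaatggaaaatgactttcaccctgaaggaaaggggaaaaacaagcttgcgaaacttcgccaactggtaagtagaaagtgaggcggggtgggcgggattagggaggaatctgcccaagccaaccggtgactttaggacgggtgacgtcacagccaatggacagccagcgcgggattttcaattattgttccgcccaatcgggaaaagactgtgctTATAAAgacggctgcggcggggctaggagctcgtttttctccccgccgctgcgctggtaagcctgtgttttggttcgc
H2BC4: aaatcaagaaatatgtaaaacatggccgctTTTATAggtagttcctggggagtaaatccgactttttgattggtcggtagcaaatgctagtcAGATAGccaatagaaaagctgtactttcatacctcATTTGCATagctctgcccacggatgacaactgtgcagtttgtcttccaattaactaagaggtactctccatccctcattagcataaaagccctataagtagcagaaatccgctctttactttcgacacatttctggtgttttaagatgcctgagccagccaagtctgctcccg
H4C16: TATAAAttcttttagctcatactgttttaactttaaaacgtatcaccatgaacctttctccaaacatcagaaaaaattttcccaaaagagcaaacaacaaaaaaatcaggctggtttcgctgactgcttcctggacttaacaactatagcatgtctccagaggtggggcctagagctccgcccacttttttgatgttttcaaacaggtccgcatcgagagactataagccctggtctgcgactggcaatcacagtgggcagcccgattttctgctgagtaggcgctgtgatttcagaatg

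A GATA word stood in 17 of the 63 histone promoter windows (27.0%), close to the 25.0% of all 35116 windows. By family the count was 7 of 17 for H2B, 4 of 12 for H3, 3 of 15 for H2A, 2 of 13 for H4 and 1 of 6 for H1. By run it was 13 of 30 in the first HIST1 run, 1 of 4 in the second, 1 of 14 in the third, 2 of 11 in HIST2, 0 of 3 in HIST3 and 0 of 1 in HIST4. TATAAA stood in 41 of 63 windows, or 65.1% against 11.5% of all. The octamer stood in 24 of 63, or 38.1% against 1.77%, with 13 of 17 for H2B, 10 of 15 for H2A, 1 of 12 for H3, 0 of 13 for H4 and 0 of 6 for H1. The 1 window of H3 was that of H3C4, whose first listed start is also the start of H2AC7, so these letters were counted for both genes. All 3 motifs occurred together in 5 histone windows, those of H2AC4, H2BC3, H2BC4, H2AC6 and H2BC6, and in 58 of the 35116 windows overall. H2AC4 and H2BC3 are adjacent in the gene order, as are H2BC4 and H2AC6. Whether windows of adjacent genes overlap was checked only for equal starts. The same letters may therefore be counted for more than 1 gene here and in the counts by family. Matches of different motifs could overlap, and a match counted anywhere in the window. The H4C14 window held none of the 3, and the TATAAA of H4C16 stood at the far end from the gene's start. That of H2BC4 was on the opposite strand and also lay toward the far end from the gene's start. A match describes these letters only, and the list has no measurement of GATA2 on DNA.

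Histone blocks were dense in peaks. The 22 members lay in 595 kb of blocks, which is 3.70 peaks per 100 kb with an exact Poisson 95% interval of 2.32 to 5.60 that covers counting error only. The rest of the list had 2670 peaks between the first and last peak of each chromosome, or 0.0917 per 100 kb, so that the blocks were 40.3-fold denser. That span includes sequence without genes and unsequenced gaps, whereas the blocks were drawn around genes, and the part of gene density in this ratio was not tested. The flanks, taken on both sides of each block at the block's own width, held 8 peaks in 1190 kb, or 0.672 per 100 kb (interval 0.290 to 1.32), and the blocks were 5.50-fold denser than these. Of these 8 peaks, 5 flanked the third HIST1 block, at 2.50 per 100 kb (interval 0.812 to 5.83), which equals the density inside the first HIST1 block. The flanks of the other blocks ran from 0 to 0.833 per 100 kb. The 5.50-fold value is thus a pooled one and does not describe each block's edge. The members made up 0.817% of the list on 0.0204% of its span. They covered 28799 bp, or 4.84% of the blocks.

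**Figure D1:**
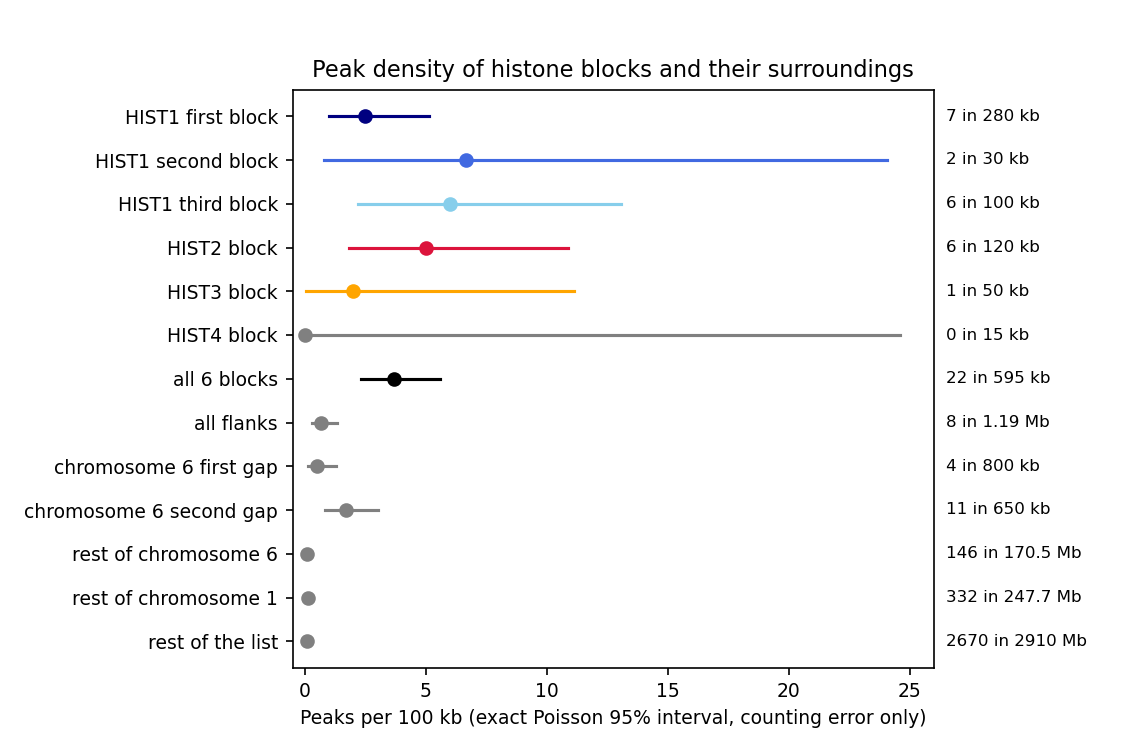
Peaks per 100 kb (horizontal axis) in each histone block, in the blocks together, in their flanks, in the chromosome 6 gaps between the HIST1 blocks and in the rest of chromosomes 6 and 1 and of the list; points are densities, lines exact Poisson 95% intervals, and the counts and lengths stand at the right. The intervals of the 6 blocks overlap one another, and that of all blocks (2.32 to 5.60) lies above that of the flanks (0.290 to 1.32).

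Among the blocks, the second HIST1 block had 2 peaks in 30 kb (6.67 per 100 kb), the third 6 in 100 kb (6.0), HIST2 6 in 120 kb (5.00), the first HIST1 block 7 in 280 kb (2.50) and HIST3 1 in 50 kb (2.00). The third HIST1 block was thus 2.40-fold and HIST2 2.00-fold denser than the first HIST1 block. Their intervals overlapped, from 2.20 to 13.1 and from 1.83 to 10.9 against 1.01 to 5.15 per 100 kb, so no order among the blocks can be read beyond counting error. HIST4, matched to the single gene H4C16, had 0 peaks in 15 kb. Its exact Poisson interval runs up to 24.6 per 100 kb, and at the density of the other blocks 0.569 peaks would fall in this length. The nearest peak to HIST4 was 269 kb away.

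Set against the number of genes, HIST2 had the most peaks, 6 for 11 coding genes (0.545 per gene). The second HIST1 block had 0.400, the third 0.375, HIST3 0.333 and the first HIST1 block 0.219 peaks per coding gene, with 7 peaks for 32 genes. Over all blocks this was 22 peaks for 68 genes, or 0.324 per gene. These values rest on the same small counts of peaks as the densities and have no interval of their own, so no order among the blocks is read from them. Whether 1 peak spans several neighbouring genes was not tested.

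**Figure D2:**
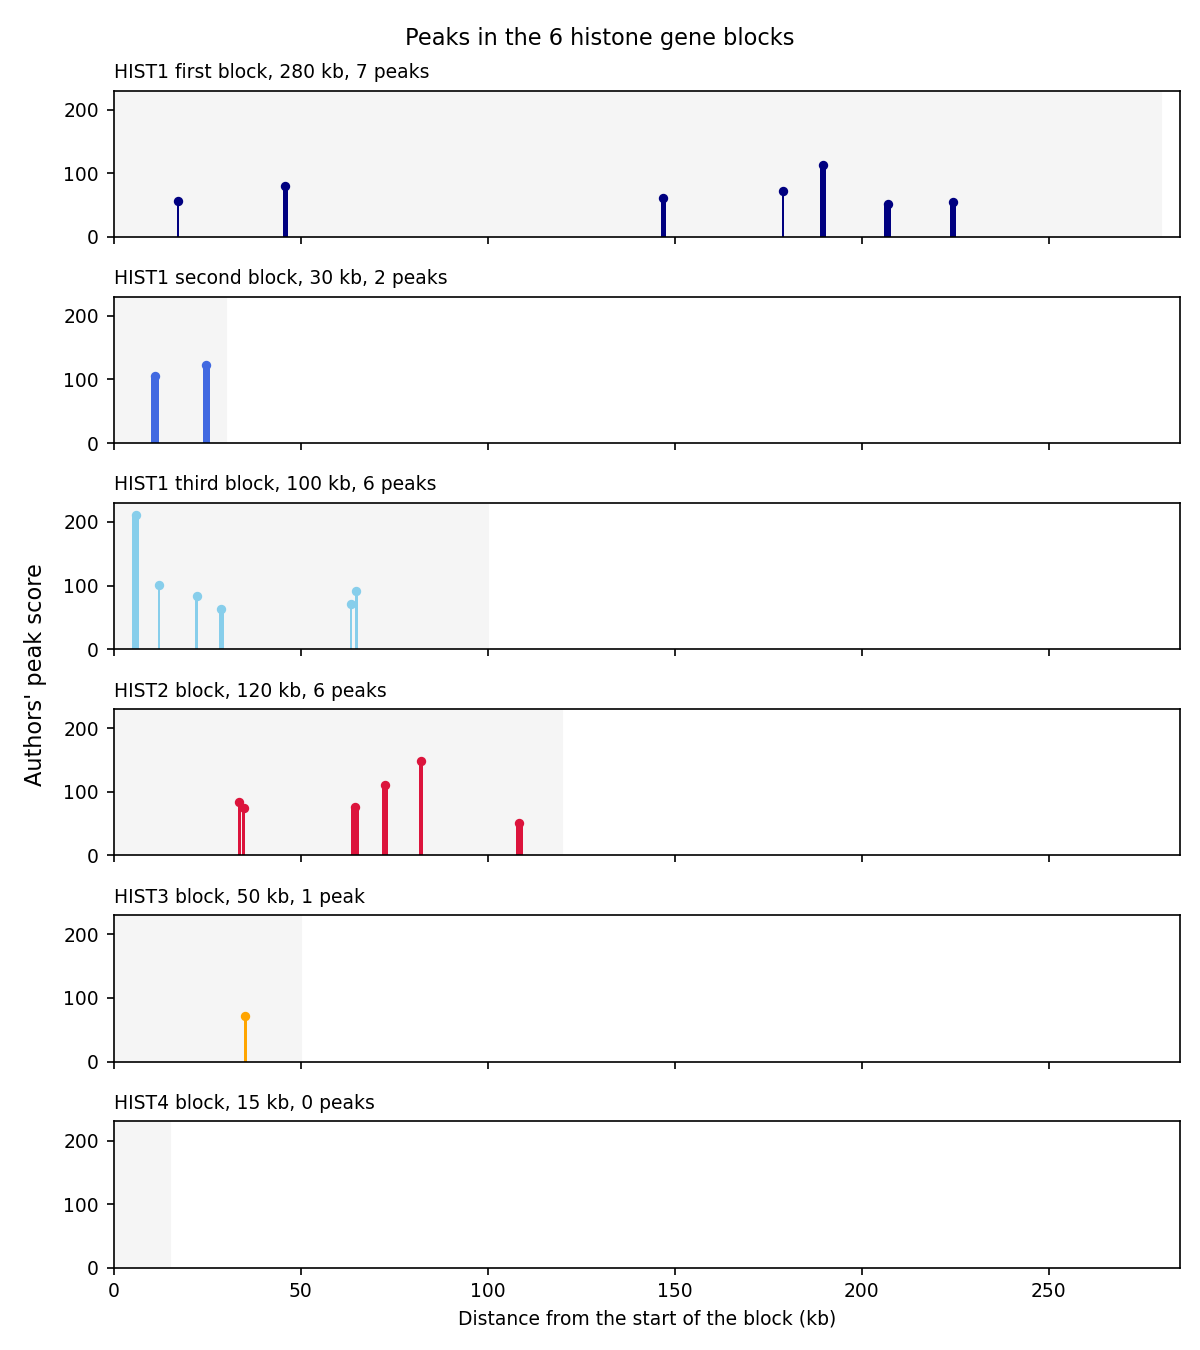
Map of the member peaks, with the distance from the start of the block in kb on the horizontal axis and the authors' score on the vertical axis; grey marks the extent of each block, and each bar has the true length of its peak with a dot at its midpoint. The highest bar, 211.63, stands near the start of the third HIST1 block, and the HIST4 block is empty.

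The score of a peak is the one its authors deposited. It serves here only to rank peaks within the list, where it runs from 50 to 735.93. In the first HIST1 block, matched to 5 of the 6 H1 genes, the 7 peaks started at 26026882, 26055194, 26156325, 26188583, 26198760, 26215967 and 26233680. The first of them was 628 bp long and scored 56.83, and the next was 1504 bp long and scored 80.69. After these came 99.6 kb without a peak, the longest such stretch in any block. The other 5 lay within the following 78.9 kb. That at 26156325 was 1281 bp long with a score of 61.26, and that at 26188583 was 756 bp long with a score of 72.58. The highest score of the block, 113.18, belonged to the peak from 26198760 to 26200426, 1667 bp long and rank 307 in the list. The last 2 were 1948 and 1516 bp long and scored only 51.29 and 54.21, ranks 2554 and 2223. This block therefore held both a high-ranked peak and peaks near the lowest score of the list.

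The second HIST1 block, matched to H2A and H2B genes and the H4 gene H4C9, held 2 long peaks with high scores. The peak from 27099896 to 27102052 was 2157 bp long, the longest of all members, and scored 104.65. The peak from 27113880 to 27115735 was 1856 bp long and scored 122.04. They ranked 381 and 244 by score, and each exceeded the score of at least 85.8% of the list.

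The third HIST1 block, matched to H1-5 and copies of all core histones, contained the highest-scoring member. This peak, from 27774994 to 27776901, was 1908 bp long and scored 211.63, rank 56 of 2692. The next, from 27781955 to 27782497, was the shortest member at 543 bp and scored 101. The peak from 27791792 to 27792539 was 748 bp long and scored 83.51, and the peak from 27798209 to 27799416 was 1208 bp long and scored 63.95. The scores of these 4 followed their order on the chromosome, with the highest at the leftmost peak. After 33.7 kb without a peak came a close pair, from 27833102 to 27833832 and from 27834414 to 27835365, separated by 581 bp. The pair measured 731 and 952 bp and scored 71.12 and 91.61.

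HIST2, with its copied H2A, H3 and H4 genes, also opened with a close pair. The peaks from 149783187 to 149784062 and from 149784241 to 149785234 were 178 bp apart, the smallest distance among the members. They were 876 and 994 bp long and scored 83.52 and 75.14. In the middle of the block lay 3 peaks, starting at 149813525, 149821731 and 149831545. Their lengths were 2014, 1692 and 1174 bp, and their scores were 75.99, 110.82 and 148.65, so that the shortest of them scored highest. The last peak, from 149857498 to 149859503, was 2006 bp long and scored 50.25, the lowest score of any member and rank 2665 in the list. All 6 peaks of HIST2 were longer than the median of the list.

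HIST3 held 1 peak, from 228644910 to 228645549, with 640 bp and a score of 71.92. Its nearest neighbour was 99.7 kb away.

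By median score the blocks ran from the second HIST1 block (113, 2 peaks) over the third (87.6), HIST2 (79.8) and HIST3 (71.9, 1 peak) to the first HIST1 block (61.3). The score ranges overlapped, from 51.29 to 113.18 in the first HIST1 block, 104.65 to 122.04 in the second, 63.95 to 211.63 in the third and 50.25 to 148.65 in HIST2. The median over the 22 members was 78.3, with quartiles of 65.7 and 104, against 65.8 (56.3 and 85.8) for the 2670 other peaks. A score above the median of the list was reached by 16 of 22 members (72.7%, where 50.0% of all peaks reach it by construction). A score above 100 was reached by 7 of 22 members (31.8%), against 16.0% of all peaks. These 7 were 1 in the first HIST1 block, 2 in the second, 2 in the third and 2 in HIST2. The highest member, at 211.63, stood below the highest score of the list, 735.93, and ranked 56.

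Most members, though not those of every block, were longer than the median of the list. Their median was 1244.5 bp (quartiles 786 and 1815, range 543 to 2157), against 848.5 bp (512 and 1344) for the other peaks, a ratio of 1.47. By block the median was 2006.5 bp in the second HIST1 block, 1504 bp in the first, 1433 bp in HIST2 and 850 bp in the third HIST1 block, and the peak of HIST3 measured 640 bp. The third HIST1 block thus lay at the median of the list, 851 bp, and HIST3 below it. The list itself, with far more peaks, runs from 314 to 12489 bp. The members differed from it in the share of short peaks and not in that of long ones. None of the 22 was under 500 bp, a length that 24.1% of all peaks have, and 3 of 22 (13.6%) were 2000 bp or longer, against 14.0% of all peaks. Of the members, 16 (72.7%) were longer than the median of the list, which 49.9% of all peaks were. These were 5 of 7 in the first HIST1 block, 2 of 2 in the second, 3 of 6 in the third, 6 of 6 in HIST2 and 0 of 1 in HIST3. All 22 were longer than the median coding histone gene of the runs, which measures 494 bp in the RefSeq table, where 60 of the 68 coding genes are under 1000 bp. The spans of the members therefore exceed a typical gene of this family, and what lies in the rest of each span is not known here. The lower quartile of the whole list, 514 bp, is also above 494 bp, so this is not particular to the members.

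**Figure D3:**
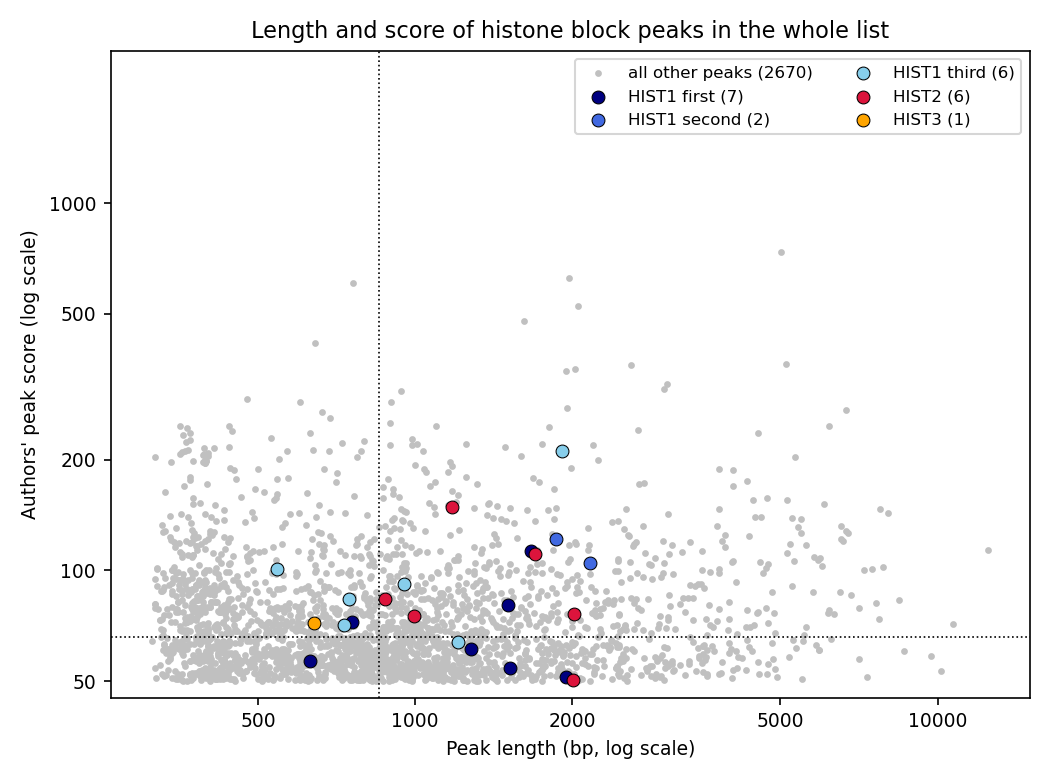
Authors' score against peak length, both on log scales, for the 22 members (coloured by block) and the 2670 other peaks (grey); dotted lines mark the medians of the list. The members lie between 543 and 2157 bp and spread over the score axis from 50.25 to 211.63.

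Length did not order the scores of the members. Across the 22 members Spearman's rho between length and score was 0.11 and Pearson's r was 0.24, as a description across peaks of 1 library. Among the 1607 other peaks within the members' range of length, the median score was 63.3 and 13.1% scored above 100, against 78.3 and 31.8% in the members. The higher median score of the members was thus also seen beside peaks of like length. Against other peaks of their own chromosomes, the median was 68.7 on chromosome 1 and 65.9 on chromosome 6.

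The stretches between the HIST1 blocks gave a nearby comparison. This part of chromosome 6 is known for its many transfer RNA genes. The first gap, 800 kb, held 4 peaks and the second, 650 kb, held 11, or 0.500 and 1.69 per 100 kb, against 3.66 in the 3 HIST1 blocks together. The HIST1 blocks were 7.32-fold denser than the first gap and 2.16-fold denser than the second, or 3.54-fold denser than both pooled. The interval of the second gap, 0.845 to 3.03, overlapped that of the HIST1 blocks, 2.05 to 6.03. Peaks in the second gap were short, with a median of 362 bp, and 7 of 11 were under 500 bp, against 0 of the 15 HIST1 members. The median scores were 69.4 and 69.0 in the gaps and 80.7 in the HIST1 blocks. Of the 15 gap peaks, 1 scored above 100, at 127.3. The 4 peaks of the first gap were not short as a group, with a median of 882 bp and 1 under 500 bp. No HIST1 member was shorter than 543 bp, whereas the median over both gaps, which hold mostly peaks of the second gap, was 434 bp. The ranges overlapped, since the longest gap peak measured 3285 bp.

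**Figure D4:**
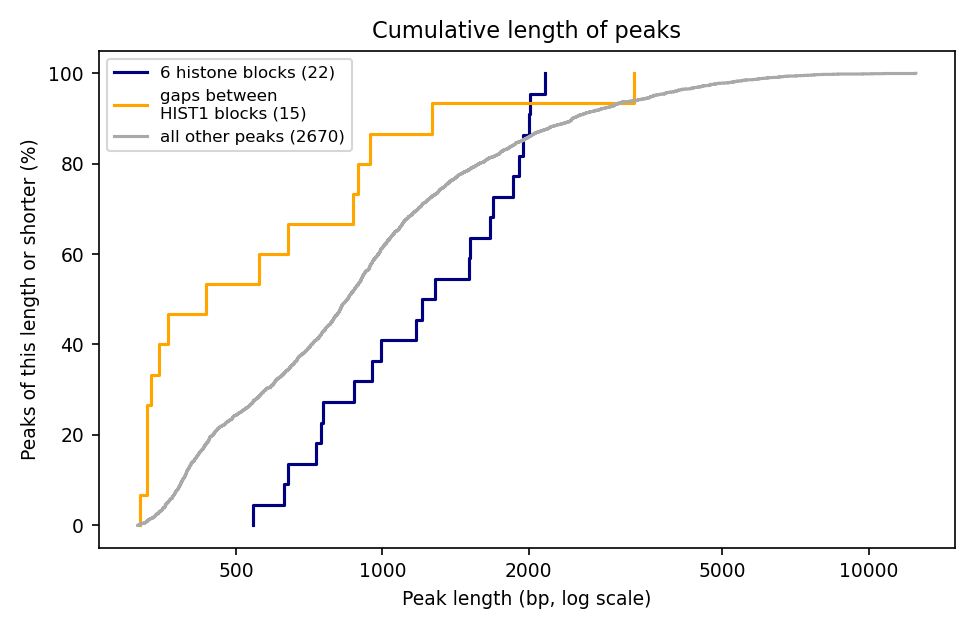
Share of peaks (vertical axis, percent) at or below each length (horizontal axis, bp, log scale) for the histone blocks, for the gaps between the HIST1 blocks and for all other peaks, which include those of the gaps. The curve of the gaps rises first, with 8 of 15 peaks under 500 bp, 7 of them in the second gap, and that of the histone blocks starts at 543 bp.

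Distances between neighbouring peaks were also described. They are not separate from the density given above, since peaks in a dense block lie nearer to one another. The part of density in the shares below was not tested. A neighbour within 10000 bp, measured from edge to edge, was found for 13 of 22 members (59.1%), against 20.2% of all peaks. It was found for 6 of 6 in the third HIST1 block, 5 of 6 in HIST2, 2 of 7 in the first HIST1 block, 0 of 2 in the second and 0 of 1 in HIST3. A neighbour within 1000 bp was found for 4 of 22 (18.2%), against 5.27% of all peaks, and these were the close pairs of the third HIST1 block and HIST2. Within 5000 bp the members' share was also 18.2%, near the 14.4% of all peaks, so the closeness of the members depended on the distance chosen. The second gap had neighbours within 10000 bp for 9 of 11 peaks, so this closeness was also present beside the blocks.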

How the data were processed

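The immunoprecipitate of doxycycline-treated, 4-thiouridine-labelled K562 cells was described from its peak list, as labelled in its title. Per the submitters' processing notes, the tools were bedtools, SAMtools, Bowtie2, cutadapt and UMI-tools 1.0.0 and the build hg19, with their roles unstated, and the names of the peaks start with MACS, a peak caller. Neither the labels nor the file state the caller's version, threshold or control. The deposited score has no stated scale. The other deposited values are start and end positions in bp, counted from 1 here. Without strand or read counts in it, the depth behind a peak is unknown.

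A peak belonged to a block if its midpoint lay inside it. Every member was described in full, by a rule set for blocks of up to 10 peaks. The members, blocks and lists were chosen with earlier results of these data known. A planned count over factors of histone transcription and processing and over replacement histones, such as NPAT, SLBP and H3F3A, was not run, as no hg19 annotation was used. Promoter motifs, shared runs of bases and peaks per gene were added after the peaks were seen. The code for assignment to blocks was run on 20 simulated lists, with 120 of 120 planted block counts recovered. The planted peaks were shorter than any listed peak and lay away from the block edges. Recovery was thus set by the design, and this checks the code only, not the assignment of real peaks. Alternatives changed the score limit, the overlap, merging, block edges, blocks left out and neighbour distance. Analyses ran in Python 3.11.15 with pandas 2.3.3, scipy 1.17.1, numpy 2.4.6 and matplotlib 3.10.9.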

Additional observations from a re-analysis of the deposited data

How the results depend on the processing

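With peaks at or above the median score of the list alone, 16 members were left, and moving the block edges out by 10 kb gave 24. Counting any overlap, requiring the whole peak inside a block, or merging peaks within 100 bp left the number at 22. The density ran from 0.0269 to 0.0476 peaks per kb over all alternatives, the latter without the first HIST1 block, around 0.0370. The median length ran from 1084 to 1510 bp, the former with the higher-scoring peaks and the latter without the third HIST1 block, and the median score from 75.6 to 83.5. The share of members with a neighbour was 18.2% within 1000 bp and 18.2% within 5000 bp, against 5.27% and 14.4% of all peaks, where it was 59.1% against 20.2% within 10000 bp. Of 35 alternative values that could move, 33 stayed within 1.5 times the count or density or within the 95% binomial interval. For the medians of score and length these intervals also include the medians of the other peaks, 65.8 and 848.5 bp. A median that stayed inside therefore does not show that the members kept a higher value than the other peaks. A further 5 alternative values could not move by construction, as they changed only the peaks compared with or left out the block without a peak. Comparisons with peaks within the members' range of length and with those of chromosomes 1 and 6 were added after seeing the data. The medians of the peaks of chromosomes 1 and 6 were 67.9 for score and 808 bp for length. Depth is unknown for all of these values, and only 1 library gave peaks. No paired analysis was possible because only the immunoprecipitate has a peak list.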

Other observations

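Within 25 kb of a block edge lay 5 further peaks, 4 of them around the third HIST1 block. Before that block, peaks from 27748233 to 27748871, 27758773 to 27759206 and 27763371 to 27764312 on chromosome 6 scored 55.19, 98.87 and 66.43, with lengths of 639, 434 and 942 bp. After it, a peak from 27873726 to 27876262 was 2537 bp long, longer than any member, and scored 61.15. The fifth lay 21.6 kb after the first HIST1 block, from 26311155 to 26312046, and scored 96.69 over 892 bp.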
